A study of Homo sapiens with 6 samples.

Results

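The zinc finger genes whose symbol is ZNF followed by a number, with at most 1 further letter, and which lie on chromosome 19 were followed in 6 bulk RNA-seq libraries. The rule took 247 of the 38648 genes listed. They are 48.4% of the 510 such ZNF genes on assembled chromosomes and 14% of the chromosome 19 genes in the files. The libraries came from HK-2 cells, an established line of human proximal tubule epithelium, exposed to X-rays at 8 Gy and harvested at day 7. In 3 libraries the cells carried negative control lentivirus (IR+NC-LV), and in 3 they carried PRDM16 overexpression lentivirus (IR+PR-LV). All 6 therefore share the irradiation, the lentiviral transduction and the puromycin selection that followed it, and no unirradiated library was analysed here. The labels number the cells 1 to 3 in each group without saying whether these were separate cultures, so p-values measure only the spread between these libraries. PRDM16 is itself a zinc finger protein with a PR domain, and the comparison asks how its added expression changes RNA levels in irradiated cells.

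Most ZNF genes encode C2H2 zinc finger proteins. In each finger a pair of cysteines and a pair of histidines hold 1 zinc ion, and residues of the finger's helix contact DNA bases, so that an array of fingers reads a stretch of sequence. Many of these proteins carry a KRAB domain at the amino end, which binds TRIM28. TRIM28 in turn recruits the histone H3 lysine 9 methyltransferase SETDB1 and HP1 proteins, and much of this system is known for silencing transposable elements. The family grew by tandem duplication, and chromosome 19 holds its densest clusters.

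The finger repeat is shown for the pair of members that passed an adjusted test under other settings, ZNF844 and ZNF441, and for the pair with the highest levels, ZNF146 and ZNF274. Each sequence is the coding stretch of the first finger with a standard linker, read from a GENCODE release 29 transcript on GRCh38. All lie in the last exon of the transcript on the plus strand, and capitals mark the codons of the zinc-binding cysteines and histidines.
ZNF844, chr19:12075709-12075792, finger 2 of 6: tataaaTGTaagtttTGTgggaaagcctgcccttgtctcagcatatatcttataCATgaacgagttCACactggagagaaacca
ZNF441, chr19:11780746-11780829, finger 2 of 14: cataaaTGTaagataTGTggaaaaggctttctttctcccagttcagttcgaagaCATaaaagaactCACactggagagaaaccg
ZNF146, chr19:36236654-36236737, finger 3 of 10: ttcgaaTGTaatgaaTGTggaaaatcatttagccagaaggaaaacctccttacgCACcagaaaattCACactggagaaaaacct
ZNF274, chr19:58212700-58212783, finger 2 of 5: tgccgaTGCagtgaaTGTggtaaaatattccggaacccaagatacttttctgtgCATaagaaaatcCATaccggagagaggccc
ZNF844 and ZNF441, which lie in the same cluster, shared 61 of 84 bases in this stretch, and the other pairs shared 42 to 50. Repeats more alike than these can bear on counting, because a short read from one member can then match another. For ZNF844, ZNF146 and ZNF274, 100% of the 100-base stretches of the longest transcript were found in no other gene.

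Of the 247 members, 246 had a coding transcript of the same name in GENCODE. These held a median of 12 fingers (range 0 to 36), against 9 in the ZNF genes of other chromosomes. A KRAB A box was found in 212 of the 246 members (86.2%), against 49.6% of the ZNF genes elsewhere. The box was called where at least 13 of 44 residues were identical to the majority sequence of clear KRAB domains. The median GC content of the members' longest transcripts was 42.2%, against 48.2% over the genes tested that had a transcript of the same name.

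The library totals ran from 13407074 to 28540041 counts, and IR+NC-LV replicate 3 was the shallowest. A count of 0 allows up to 3 counts, or 0.105 to 0.224 CPM (counts scaled to the size of the library) depending on the library, for counting error only. PRDM16 itself was counted 2, 0 and 1 times with control virus and 14, 10 and 8 times with PRDM16 virus, without overlap. The ratio of its counts per total count was 8.51 (95% exact binomial interval 2.66 to 43.4, which pools the libraries of a group and covers counting error only). Of the proximal tubule markers, GGT1 stood at 50.5 to 70.7 CPM and PAX8 of the renal lineage at 160 to 199 CPM. The endocytic receptor LRP2 had 3 counts in all 6 libraries together and the transporter SLC22A6 had 1. Thus defining markers of mature tubule cells were near 0. The leukocyte marker PTPRC reached at most 0.179 CPM, while CD68 stood at 81.9 to 106 CPM. Of the fibroblast markers, LUM stood at 77.1 to 117 CPM and COL1A1 at 16.9 to 22.5 CPM, but PDGFRB only at 0.855 to 2.52 CPM and DCN at 0.144 to 0.25 CPM. Their part in the results was not tested.

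The members were broadly but weakly present. At least 1 count was found for 243 of the 247, and 231 passed the filter on low counts and were tested. The median over all 247 members of the mean TPM (counts scaled by gene length and library size) was 10.3, with quartiles of 4.58 and 16.6, against a median of 16.3 over all genes tested. A mean of at least 1 TPM was reached by 222 members, at least 10 TPM by 125, and at least 50 TPM by 2. Together the members took 0.480%, 0.474% and 0.539% of the counts with control virus, against 0.449%, 0.451% and 0.482% for IR+PR-LV. The highest IR+PR-LV share lay above the first 2 IR+NC-LV shares, so the groups overlapped.

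ZNF146, a protein made almost wholly of fingers and without a KRAB box, was the highest member at a mean level of 170 TPM. ZNF274, which binds the 3′ ends of other ZNF genes and brings SETDB1 there, came next at 55.6 TPM. Below them the levels formed a close series. ZNF587, which binds endogenous retroviral sequence, stood at 44.6 TPM. ZNF302, ZNF700, ZNF260 and ZNF675 stood at 43.5, 42.2, 42.0 and 41.6 TPM. ZNF675 is known to restrain TRAF6 signalling. ZNF473, a factor in the 3′ end processing of histone mRNA, stood at 39.2 TPM, and ZNF506 and ZNF317 at 35.9 and 35.2 TPM. These 10 members made up 17.7% of the summed TPM of the members.

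The 16 members that were not tested lay mostly in the array of the short arm near the centromere. That array runs from ZNF101 to ZNF254 (chr19:19668070-24129968, hg38) and holds 37 members, of which 28 were tested. The other 9 had 0 to 32 counts over the 6 libraries together. ZNF676, ZNF729, ZNF99 and ZNF728 had none at all, and ZNF208, ZNF98, ZNF492 and ZNF723 had 4, 2, 1 and 1. These 8 genes lie between 21939815 and 23003176 on the chromosome. The same array nonetheless held ZNF675 at 41.6 TPM. ZNF536, which is known from the developing nervous system, had a single count. At this depth low expression of these genes cannot be told from none.

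No member passed an adjusted p of 0.05 in the quasi-likelihood test of edgeR, adjusted by Benjamini-Hochberg over the 15340 genes tested, where 0.0652% of all genes passed. The lowest adjusted p of a member was 0.0999, for ZNF844. At an unadjusted p under 0.05, 33 of the 231 members (14.3%) were lower with PRDM16 virus, against 5.97% of all genes tested, and 3 (1.30%) were higher, against 4.55%. A log2 fold change below 0, with IR+PR-LV over IR+NC-LV throughout, was found for 165 of the 231 tested members (71.4%), against 48.9% of all genes tested. The median log2 fold change was -0.08 over the tested members and 0.00444 over all genes tested. The differences were small. The largest was -0.67, and 180 of the 231 lay within 0.25 of 0. Fewer cells of a kind and less RNA per cell cannot be told apart in bulk samples.

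Other tools called a few members. DESeq2 put 2 of the 243 members it fitted under an adjusted p of 0.05, where 1.13% of the genes with an adjusted p passed. These were ZNF844 (adjusted p = 0.0177) and ZNF441 (adjusted p = 0.0218). The edgeR test without the filter on low counts called 6 of 243 members, where 1.19% of all genes passed. Beside ZNF844 and ZNF441 these were ZNF699, ZNF45, ZNF585A and ZNF773, and all 6 were lower in IR+PR-LV.

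The direction was not even over the libraries. On log2(CPM + 0.5), the median deviation of the tested members from their own means came to 0.01, -0.00437 and 0.14 for IR+NC-LV. It was -0.08, -0.06 and 0.01 for IR+PR-LV. IR+NC-LV replicate 3 thus stood above all the others, and IR+PR-LV replicate 3 lay level with the first IR+NC-LV library. IR+NC-LV replicate 3 was the highest library for 128 of the 231 members (55.4%), against 24.1% of all genes tested. IR+PR-LV replicate 1 was the lowest for 95 of the 231, and it was the lowest for 21.0% of all genes tested. The summed level of all members was 4770, 4759 and 5203 CPM in IR+NC-LV and 4551, 4606 and 4892 CPM in IR+PR-LV. The means were 4911 ± 253 and 4683 ± 183 CPM (SD, n = 3), and the groups overlapped.

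Without IR+NC-LV replicate 3 the count of lower members at an unadjusted p under 0.05 dropped to 16, where 5.01% of all genes tested were lower, and 2 were higher, against 4.07%. The median was then -0.04, and 144 of 231 members (62.3%) had a negative log2 fold change. Without IR+PR-LV replicate 2 the count of lower members was 19, where 3.72% of all genes were. With the trend in GC content and length removed from each library, 35 members were lower, where 5.61% of all genes were, and 7 were higher, where 11.8% were. The 33 members lower over all 6 libraries were picked by the same test, and each fit that left out 1 library reused the rest. Keeping the sign was therefore largely set in advance and is no separate support. All 33 kept a negative log2 fold change in every such fit, and 13 of them kept an unadjusted p under 0.05 in all 6 of those fits. The share of all genes that kept it was not counted. Because of the same reuse, the 13 are a description and no separate support. The 13 were ZNF317, ZNF441, ZNF844, ZNF442, ZNF709, ZNF333, ZNF382, ZNF45, ZNF610, ZNF582, ZNF773, ZNF416 and ZNF671.

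The members with the largest negative differences among those whose libraries did not overlap all carry a KRAB box. So do 86.2% of all members with a coding transcript. ZNF844 stood at 12, 12.6 and 14.2 CPM in IR+NC-LV and at 8.28, 8.37 and 8.59 CPM in IR+PR-LV. The 3 IR+PR-LV libraries lay close together and all fell below the lowest IR+NC-LV library. Its log2 fold change was -0.62 ± 0.11 (SE, n = 3 per group, edgeR adjusted p = 0.0999), or a level 34.9% lower. ZNF441, chosen for its call in other tools after its values were seen, stood at 28.3, 27.0 and 37.0 CPM against 21.0, 20.5 and 22.6 CPM. Here IR+NC-LV replicate 3 was far above the rest, but the groups did not overlap without it either. Its log2 fold change was -0.52 ± 0.12 (edgeR adjusted p = 0.212).

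ZNF433 was lowly expressed, at 1.25, 1.09 and 1.44 CPM against 0.774, 0.679 and 0.924 CPM. Its log2 fold change of -0.67 ± 0.25 was the most negative of all tested members (edgeR adjusted p = 0.400). ZNF671, reported as methylated in several carcinomas, stood at 6.50, 5.79 and 8.13 CPM against 4.94, 4.11 and 4.51 CPM. All 3 of its IR+PR-LV libraries lay below the lowest IR+NC-LV library (log2 fold change -0.59 ± 0.17, edgeR adjusted p = 0.304). ZNF610 stood at 4.17, 3.85 and 4.89 CPM against 2.38, 3.29 and 2.88 CPM, also without overlap (-0.58 ± 0.18, edgeR adjusted p = 0.347). ZNF135 and ZNF235 complete the 6 largest, at -0.58 ± 0.25 and -0.58 ± 0.23. Both had means under 4 CPM, and the highest IR+PR-LV library of each came close to the lowest IR+NC-LV library.

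Among the 13 members kept in every fit without 1 library, ZNF317 had the highest level. It stood at 50.6, 47.6 and 59.5 CPM in IR+NC-LV and at 43.9, 42.3 and 42.2 CPM in IR+PR-LV (log2 fold change -0.29 ± 0.09, edgeR adjusted p = 0.328). ZNF416, known from the activation of fibroblasts, stood at 16.2, 16.3 and 19.1 CPM against 12, 12.7 and 12.8 CPM. The groups were apart by more than their ranges (-0.46 ± 0.10, edgeR adjusted p = 0.195). ZNF773 stood at 19, 17.5 and 25.2 CPM against 14.7, 13.5 and 14.5 CPM, and ZNF582, a methylation marker in cervical lesions, at 10.6, 11.4 and 14.7 CPM against 8.99, 8.40 and 8.42 CPM. In both genes IR+NC-LV replicate 3 was the highest library by a wide margin.

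Only 6 members had every IR+PR-LV library above every IR+NC-LV library (2.60% of those tested, against 7.46% of all genes tested), while 54 had every one below (23.4%, against 9.54%). ZNF146, the highest member, stood at 174, 185 and 181 CPM in IR+NC-LV and at 191, 203 and 218 CPM in IR+PR-LV. Its log2 fold change was 0.18 ± 0.07 (edgeR adjusted p = 0.398). On 35.5% of its exon bases another gene lies on the opposite strand, and the strand setting of the counting is not given in the sources used here. ZNF749 stood at 18.6, 18.6 and 21.1 CPM against 22.6, 22.1 and 24.2 CPM (0.25 ± 0.09, edgeR adjusted p = 0.397).

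ZNF587B stood at 40.4, 36.4 and 35.3 CPM against 44.1, 41.4 and 44.7 CPM (0.22 ± 0.08, edgeR adjusted p = 0.398). Its neighbour ZNF587 stood at 92.5, 90.5 and 87.2 CPM against 101, 94.6 and 98.5 CPM (0.12 ± 0.06, edgeR adjusted p = 0.515). Of the 100-base stretches of these transcripts, 85.7% and 87.6% were found in no other gene, so some reads could belong to a copy. ZNF880 and ZNF121 were the other two, at log2 fold changes of 0.18 ± 0.11 and 0.14 ± 0.08. In ZNF880, as in ZNF587 and ZNF587B, IR+NC-LV replicate 3 was the lowest library.

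The counts in each direction differed with level. The tested members were cut into 3 bins of 77 by mean TPM. In the bin of lowest level 15 were lower at an unadjusted p under 0.05 (19.5%). The middle bin had 13 (16.9%) and the highest had 5 (6.49%), where 5.97% of all genes tested were lower. The highest bin was thus near the share of all genes. All 3 higher members were in the highest bin (3.90%, against 4.55% of all genes tested). The share with a negative log2 fold change was nevertheless close, at 74.0%, 70.1% and 70.1%. ZNF274 at the top of the range stood at 59.3, 61.5 and 72.6 CPM against 60.1, 57.1 and 57.1 CPM, with overlap and a log2 fold change of -0.15 ± 0.09 (edgeR adjusted p = 0.580). ZNF302 and ZNF473 stood at 0.05 ± 0.07 and 0.09 ± 0.07 on the log2 scale.

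By domain, all 33 lower members carried a KRAB A box. They were 33 of the 200 tested members with a box (16.5%) and none of the 30 without one. At an unadjusted p under 0.05, 5.97% of all genes tested were lower, and a class of 30 would hold few at that share. The medians did not follow this split, at -0.08 with a box and -0.10 without, and 142 of 200 and 23 of 30 had a negative log2 fold change. In the ZNF genes of other chromosomes 11 of 116 with a box (9.48%) were lower at an unadjusted p under 0.05. Without a box 11 of 113 were (9.73%). Without IR+NC-LV replicate 3 the members' counts were 16 of 200 (8%) and 0 of 30, where 5.01% of all genes tested were lower. None of these differences between classes was tested. Across 230 members the correlation of the log2 fold change with the number of fingers was near 0 (Pearson's r = 0.02, Spearman's rho = 0.01), and with GC content it was weak (r = -0.04, rho = -0.14). These describe genes, which share libraries and sequence and are not independent replicates.

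Gaps of over 1 Mb between neighbours cut the members into 16 position blocks. The largest is the block at the end of the long arm, from ZNF628 to ZNF446 (chr19:55476603-58489533), with 59 members, all tested. In it 48 had a negative log2 fold change, and the median was -0.13. At an unadjusted p under 0.05, 10 were lower (16.9%) and 2 higher (3.39%), against 5.97% and 4.55% of all genes tested. ZNF671, ZNF416, ZNF773, ZNF582 and ZNF135 lie there, as do the higher ZNF749 and ZNF587B. The block around ZNF331 and ZNF83 (chr19:51571283-53580269) has 39 members, all with a KRAB box. Of its 38 tested members 20 were positive and 18 negative, 3 were lower at an unadjusted p under 0.05 (7.89%), and the median was 0.000523.

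On the short arm, the block from ZNF653 to ZNF791 (chr19:11483429-12633834) holds ZNF844, ZNF441, ZNF433, ZNF442 and ZNF709. Of its 24 tested members 19 were negative, with a median of -0.10. At an unadjusted p under 0.05, 6 of them were lower (25%), against 5.97% of all genes tested. The array near the centromere had 18 of 28 negative, 2 lower (7.14%, near the share of all genes) and a median of -0.03. Around ZNF146, in the block from ZNF565 to ZNF573 (chr19:36182060-37779586), 20 of 26 were negative and 4 lower (15.4%), with a median of -0.20. ZNF146 was its only higher member at that p (3.85%, against 4.55% of all genes tested). Differences between blocks were not tested.

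The highest members of further blocks were set side by side. ZNF333, a KRAB gene that stands alone in its block on the short arm, did not overlap between groups, at 7.69, 8.40 and 9.57 CPM against 5.72, 6.87 and 5.87 CPM (log2 fold change -0.47 ± 0.14, edgeR adjusted p = 0.326). ZNF507, also alone in its block and without a KRAB box, stood at 70.0, 67.6 and 81.0 CPM against 63.4, 65.6 and 73.2 CPM, and here the groups overlapped (-0.11 ± 0.09). ZNF574 and ZNF428 stood at -0.11 ± 0.11 and -0.13 ± 0.17 on the log2 scale, and the germ cell factor ZNF541 at -0.17 ± 0.18. ZNF77 (-0.0128 ± 0.12), ZNF83 (0.03 ± 0.08) and ZNF780A (0.24 ± 0.34) changed sign in at least 1 fit without a library.

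**Figure D1:**
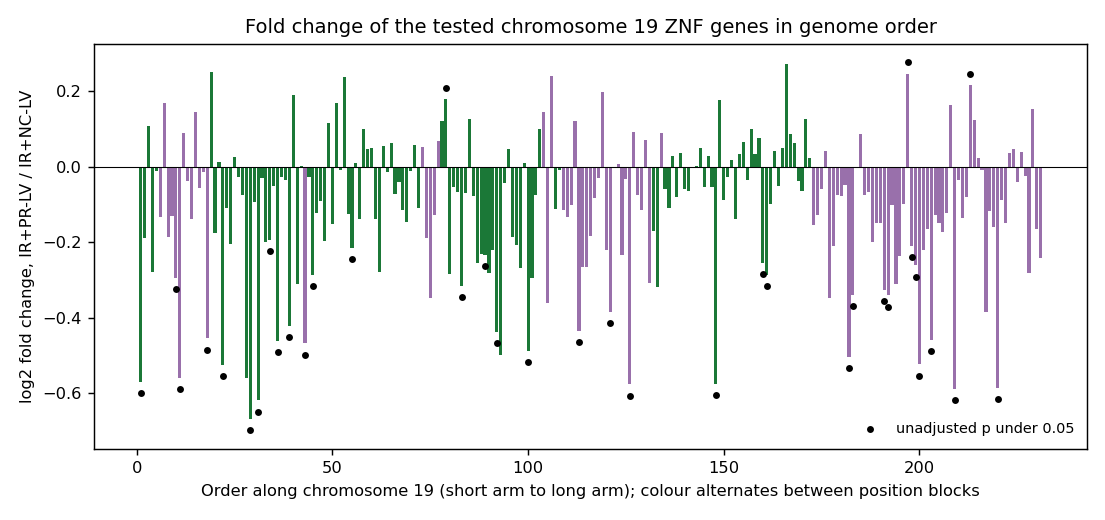
Log2 fold change of the 231 tested members in their order along chromosome 19. Bars are genes, colours alternate between position blocks, and dots mark an unadjusted p under 0.05 in edgeR (33 lower, 3 higher). Negative bars outnumber positive ones in most blocks, at both ends and between them, while the block of 38 tested members before the last one has a median of 0.000523.

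Compared with other genes, the ZNF genes of other chromosomes lay on the same side and the neighbours on chromosome 19 did not. Of 229 tested ZNF genes elsewhere 65.9% had a negative log2 fold change, and the median was -0.06. At an unadjusted p under 0.05, 22 were lower (9.61%) and 3 higher (1.31%), against 5.97% and 4.55% of all genes tested. Of 808 other tested genes on chromosome 19, 44.3% were negative, 38 were lower (4.70%) and 26 higher (3.22%) at that p, and the median was 0.02. These differences were not tested.

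The RNAs of TRIM28 and its partners in KRAB repression were examined as a list. None of 23 tested genes of 24 listed reached an adjusted p of 0.05 in edgeR. TRIM28 stood at 259, 247 and 260 CPM in IR+NC-LV and at 324, 253 and 236 CPM in IR+PR-LV. One IR+PR-LV library lay above the controls and another below them (log2 fold change 0.09 ± 0.11, adjusted p = 0.815). SETDB1 stood at 42.1, 39.4 and 45 CPM against 38.8, 38 and 38.1 CPM, without overlap (-0.14 ± 0.07, edgeR adjusted p = 0.562). HDAC2, a histone deacetylase, was the only one at an unadjusted p under 0.05, at 280, 292 and 267 CPM against 311, 330 and 346 CPM (0.23 ± 0.06, edgeR adjusted p = 0.274). That was 4.35% of the tested genes in the list, near the 4.55% of all genes tested that were higher. The HP1 genes CBX1, CBX3 and CBX5 had log2 fold changes of 0.06, 0.17 and 0.05, and DNMT1, the maintenance DNA methyltransferase, -0.10. Over the list 15 were positive and 8 negative, with a median of 0.05.

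Promoters are shown for ZNF844 and ZNF441, and for ZNF416, the lower member of lowest p whose promoter holds the 7-base CCGGAAG. They run from 250 bases before to 50 bases after a RefSeq start (GRCh38.p14), and capitals mark matches on either strand to CCGGAAG (the core of ETS family sites), GGGCGG (a GC box) and CCAAT, of which the last was added after these sequences were seen.
ZNF844, chr19:12064481-12064780, plus strand: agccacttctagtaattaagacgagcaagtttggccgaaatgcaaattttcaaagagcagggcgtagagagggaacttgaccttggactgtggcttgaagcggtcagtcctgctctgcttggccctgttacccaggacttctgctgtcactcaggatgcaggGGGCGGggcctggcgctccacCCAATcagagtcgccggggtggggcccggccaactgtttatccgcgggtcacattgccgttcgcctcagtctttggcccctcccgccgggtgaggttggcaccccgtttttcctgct
ZNF441, chr19:11766750-11767049, plus strand: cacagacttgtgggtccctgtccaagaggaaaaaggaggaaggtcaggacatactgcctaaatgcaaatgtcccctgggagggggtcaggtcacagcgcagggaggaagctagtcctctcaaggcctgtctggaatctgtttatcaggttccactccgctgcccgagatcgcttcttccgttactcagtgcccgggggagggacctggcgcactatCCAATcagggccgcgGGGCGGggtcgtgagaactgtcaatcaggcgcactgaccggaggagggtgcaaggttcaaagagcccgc
ZNF416, chr19:57578862-57579161, minus strand: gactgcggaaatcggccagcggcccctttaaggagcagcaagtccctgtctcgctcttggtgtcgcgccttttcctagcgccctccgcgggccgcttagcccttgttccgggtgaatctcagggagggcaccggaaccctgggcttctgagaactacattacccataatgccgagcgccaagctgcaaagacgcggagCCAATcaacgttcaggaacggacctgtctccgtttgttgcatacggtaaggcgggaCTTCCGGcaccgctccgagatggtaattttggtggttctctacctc
The letters CCGGAAG stood in 109 of the 268 promoters listed for 216 members (40.7%), against 28.8% of those of the other ZNF genes and 10.3% of all 35116 promoters in the table. GGGCGG stood in 64.9%, 56.5% and 45%, and CCAAT in 50%, 39.3% and 34.6%. The E-box CACGTG stood in 4.48%, 5.61% and 7.26%. Members with and without the motif were set side by side. Of the 96 tested members with CCGGAAG in at least 1 promoter 12 were lower at an unadjusted p under 0.05. Of the 110 without it 19 were, where 5.97% of all genes tested were lower. The median log2 fold changes with and without it were -0.08 and -0.10. A match is a description of letters and not of a bound site.

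Counting limits touched 56 members, which had over 10% of exon bases shared with another gene, under 90% of 100-base stretches of their own or a name shared with another row. Among the 182 tested members without such a limit 27 were lower (14.8%) and 1 was higher (0.549%) at an unadjusted p under 0.05. Of all genes tested 5.97% were lower and 4.55% higher. The median of the 182 was -0.10. ZNF45 and ZNF333 are among the lower members with shared exon bases.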

How the data were processed

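Bulk RNA-seq of irradiated HK-2 cells gave 6 libraries, 3 per group, grouped by the labels. Poly(A) RNA was sequenced as paired ends. Reads that failed quality or held adapter were discarded by the authors, who deposited raw counts per gene and their TPM and FPKM values, per library. The submitters' processing notes name hg38, CASAVA, featureCounts 2.0.1 and DESeq2 1.16.1. The aligner and the strand setting are not given in the sources used here. The FPKM values were not used.

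The deposited counts were tested with edgeR 4.0.16 (quasi-likelihood, TMM, filterByExpr with a minimum count of 10, R 4.3.3), fitted over the whole table with Benjamini-Hochberg adjustment. CPM values use TMM library sizes, with factors from 0.981 to 1.04. DESeq2 1.42.0 and other normalizations, filters, a replicate block and fits without each library were alternatives. Fingers, KRAB boxes and GC content were read from GENCODE release 29, promoters from RefSeq GRCh38.p14.

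Named members were those with an adjusted p under 0.05, the 10 highest by TPM, the 6 largest differences in each direction without overlap and at 1 CPM or more, and the highest of each position block. Any other member named was chosen after its values were seen. The members and lists were chosen with earlier results of these data known.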

Additional observations from a re-analysis of the deposited data

How the results depend on the processing

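The adjusted-p count of 0 became 6 without the filter on low counts and 2 with DESeq2. The 33 lower members became 20 with DESeq2 (8.23% of 243, where 2.19% of all genes were lower) and 16 to 35 in fits without 1 library, with 16 without IR+NC-LV replicate 3 and 19 without IR+PR-LV replicate 2. The 3 higher members became 1 to 8 in those fits, 7 with the trend in GC content and length removed, and 1 with members of uncertain counts left out. With that trend removed, 11.8% of all genes were higher, and the median of all genes moved to 0.05 and that of the members to -0.05. The trend, thinning and uncertain-count alternatives were added after seeing the data. The median over TRIM28 and its partners became 0.084 with the trend removed. For PRDM16, tested without the filter (log2 fold change 3.03, edgeR adjusted p = 0.00872), fits without 1 library gave 2.35 to 3.91, and leaving out IR+NC-LV replicate 2 gave an adjusted p of 0.054. With the replicate block it was 3.09 (adjusted p = 0.0567). Same-numbered libraries of the 2 groups correlated at -0.00884, 0.0514 and 0.0706, and libraries of unlike number at -0.0971 to 0.0619. These values neither show nor exclude a pairing by number, and the labels do not state one. The block left 33 lower, 3 higher and 0 adjusted calls among the members. ZNF77 turned positive with the trend removed (0.033) and with all libraries thinned to the smallest total (0.017). In fits without 1 library it ran from -0.058 to 0.039, ZNF260 from -0.10 to 0.036, ZNF780A from -0.043 to 0.55 and ZNF83 from -0.039 to 0.073. The cause was not tested. Of 476 values of named members 465 kept direction and side of the threshold. No named member was under the threshold as reported, and every alternative reused the same counts. Keeping both was therefore largely set in advance and is no separate support. ZNF536 and PRDM16 gave no value under the filters.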

Other observations

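Zinc finger genes of chromosome 19 under other names were set beside the ZNF genes as values. Of 18 listed (ZBTB, ZFP, ZIM, ZIK1, ZSCAN and PEG3) 12 were tested, 8 of them with a negative log2 fold change, and the median was -0.06. ZFP30, a KRAB zinc finger gene, was the only one at an unadjusted p under 0.05, at 47.5 ± 9.72 CPM with control virus against 37.5 ± 4.82 CPM for IR+PR-LV (SD, n = 3, log2 fold change -0.34, edgeR adjusted p = 0.464), and its groups overlapped. That was 8.33% of the 12 tested, where 5.97% of all genes tested were lower. The imprinted gene PEG3 stood at 3.65 ± 1.46 and 3.11 ± 0.373 CPM. ZIM3, whose KRAB domain is used in CRISPR interference tools, had no count in any library.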
